A study of Phaseolus vulgaris with 12 samples.

Results

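The genes described here were the 100 most abundant transcripts of well-watered dwarf bean (Phaseolus vulgaris) leaves. They were the 100 genes with the highest mean TPM over 6 well-watered libraries, out of 27996 genes in each table, after the 51 genes that the study names had been left out. TPM, a measure of transcript abundance, is the count of exon reads scaled for gene length and for the library total, so that all genes of a library sum to a fixed value and a gene can be compared with others in level. The members were thus chosen by their mean TPM in well-watered leaves. These means ran from 26692 TPM for PHAVU_004G064800g to 1000.92 TPM for PHAVU_006G029100g. Just outside, PHAVU_002G108000g had 1000.49 TPM, and the next, PHAVU_006G065100g and PHAVU_008G187900g, had 985.7 and 975.1 TPM. Of the 51 genes left out, 7 would otherwise have ranked within the 100.

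The plants carried the genotype label Dwarf messi and grew from seeds coated with a commercial polymer alone or with the polymer holding 114 mM 6PP. 6PP (6-pentyl-alpha-pyrone) is a volatile lactone made by Trichoderma fungi. From the second trifoliate leaf onward, plants were either kept well watered or left without irrigation for about 16 days, until they wilted. The study grew its plants in a pair of growth chambers, and the labels do not say which library came from which, so the part of the chamber in any difference was not tested. This gives 4 groups (well-watered polymer, well-watered 6PP, drought polymer and drought 6PP) with 3 labelled replicates each, and each replicate was a pool of trifoliate leaves from 5 plants. The replicates were composites of randomly picked plants of 1 cultivar, and the leaf cells were mixed. Of the drought 6PP plants only 1 library (replicate 3) was used, because the file of replicate 1 held 12 tables on other gene identifiers and that of replicate 2 held 2 tables, with no label saying which is the sample. One of those 2 was equal to replicate 3 in every cell and was counted as the same library, and the other was not used. Comparisons with that library therefore have no replicate check. The 10 libraries held 39974999 to 55648172 reads assigned to genes. Seed lectin (DLEC2) reached at most 0.37 TPM and the 3 leghemoglobin genes LBA_1, LBA_2 and LBA_3 of root nodules had 0 TPM in each of the 10 libraries. The Rubisco small subunit genes RBCS_1 and RBCS_2 were lowest in the drought 6PP library, with 1799 and 671 TPM. Their place among the highest well-watered genes follows from the choice of members and is no check of the tissue.

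In a green leaf a small set of genes accounts for much of the messenger RNA. Many of these serve photosynthesis, the process in which chloroplasts capture light and fix CO2, and the small subunit of Rubisco, the CO2-fixing enzyme, is encoded by a family of near-identical nuclear genes whose transcripts are among the most plentiful in leaves. When water is short, leaves close their stomata and many photosynthetic transcripts of plants decline while protective transcripts accumulate. Because TPM is a share, a gene can also lose TPM when other transcripts take more of the total.

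The files gave a symbol to 152 genes, and 3 of the 100 members carried one. These were RBCS_1 (PHAVU_004G064800g) and RBCS_2 (PHAVU_004G064900g), which encode the Rubisco small subunit, and THI1_1 (PHAVU_007G052900g), a gene of thiamine biosynthesis whose Arabidopsis counterpart makes the thiazole half-molecule in chloroplasts. Of the gene groups looked for by symbol (light harvesting, photosystem subunits, Calvin cycle, photorespiration, translation and others), the Rubisco small subunit was the one with members. The other 97 members are given by identifier only, without a role.

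The members held between 28.7% and 31.3% of all TPM in the 6 well-watered libraries. The share was 31.0%, 28.7% and 29.6% in the well-watered polymer libraries, and 30.9%, 30.7% and 31.3% in the well-watered 6PP libraries. In the drought polymer libraries it was 16.0%, 19.1% and 16.1%, below each of the 6 well-watered libraries. In bulk leaf RNA, fewer cells of a type and less RNA per cell cannot be told apart. The drought 6PP library stood apart with 28.4%, of which 11 members held 18.8%. The choice of genes fixes the direction of this difference, so it carries no test. Each library's own 100 highest genes held 30.1% to 32.8% of TPM in the well-watered libraries, 25.8% to 28.3% in the drought polymer libraries and 38.3% in the drought 6PP library. Members made up 49, 55 and 50 of the own 100 highest genes in the drought polymer libraries, and 93 to 97 in the well-watered ones.

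**Figure D1:**
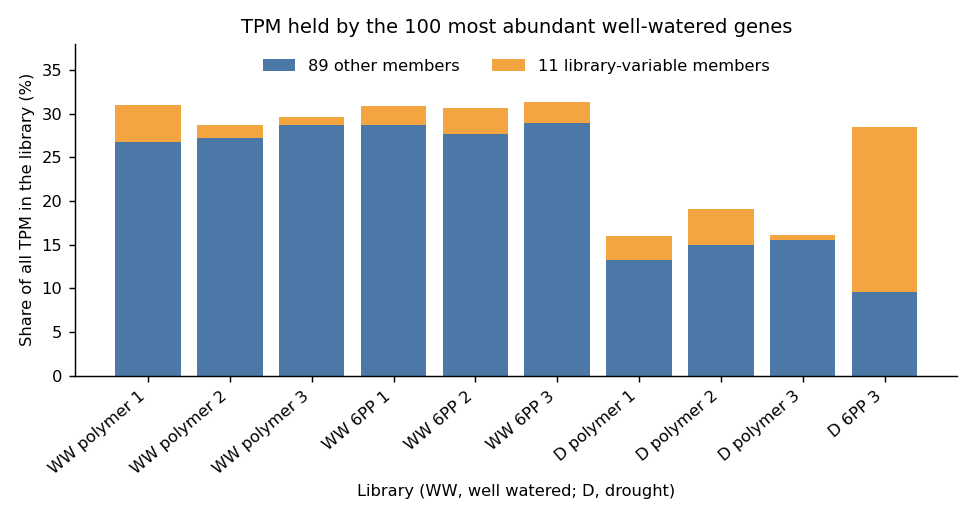
Share of all TPM (%) held by the 100 members in each of the 10 libraries, as stacked bars of 89 members and of the 11 members that varied most between well-watered libraries. The 89 held 26.8% to 29.0% in well-watered libraries, 13.3% to 15.6% in drought polymer libraries and 9.59% in the drought 6PP library, where the 11 held 18.8%.

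These 11 members are set apart by a rule chosen after their values were seen, namely a highest well-watered library at least 3 times the lowest. The ratio lay between 3.35 and 6.06 in the 11 and was at most 2.36, with a median of 1.24, in the other 89. Among the 1531 genes with a mean of at least 100 TPM in well-watered leaves, 21 (1.37%) had such a ratio. The first of them, PHAVU_002G203700g, had 6122, 2866 and 1365 TPM in the well-watered polymer libraries and 3964, 5002 and 5103 TPM in the well-watered 6PP libraries. Its level was 4259.6, 5953 and 964 TPM in the drought polymer libraries and 42642 TPM in the drought 6PP library, where it was the most abundant gene. The highest and the lowest well-watered libraries were thus replicates of the same group. The gene is listed with 41.4% of its reads in introns.

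The other 10 of the set were PHAVU_008G141300g, PHAVU_011G121000g, PHAVU_011G120500g, PHAVU_003G067400g, PHAVU_002G203800g, PHAVU_001G037800g, PHAVU_003G041600g, PHAVU_008G179700g, PHAVU_002G090600g and PHAVU_002G181700g. All 11 were lowest in drought polymer replicate 3 and highest in the drought 6PP library, and in all 11 the next 2 libraries were well-watered polymer replicate 1 and drought polymer replicate 2. PHAVU_011G120500g, for instance, had 4187, 1367 and 1227 TPM in well-watered polymer leaves, 2395, 3033 and 2329 TPM in well-watered 6PP leaves, 3025, 4958 and 812 TPM in drought polymer leaves and 26823 TPM in the drought 6PP library. The drought 6PP library exceeded the highest of the other 9 libraries by 2.90 to 6.96 times across the 11 genes. Pairwise Pearson correlations of log2(TPM + 1) among them were at least 0.96 over the 10 libraries and at least 0.93 over the 9 without the drought 6PP library, which is a description of points that share a library. Over those 9 libraries no other member reached 0.9 with their mean, and 4 genes of at least 100 TPM outside the list did, led by PHAVU_006G154100g (r = 0.993) and PHAVU_011G1212001g (r = 0.992).

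The 11 genes lay on 5 chromosomes, 10 of them had a single exon, and their median exon length was 265 bases (114 to 1012). For a given number of reads a shorter exon length gives a higher TPM, and the part of length in their place was not tested. In the other 89, 25.8% had a single exon and the median exon length was 1079 bases. None of the 11 had a symbol. The share of reads in introns over the whole library was 7.997% in the drought 6PP library, 6.27% in well-watered polymer replicate 1 and 5.94% in drought polymer replicate 2, against 5.28% in drought polymer replicate 3, and the number of genes with TPM above 0 was 21686, 20663, 21601 and 22480 in that order. In the other 6 libraries the intron share lay between 4.97% and 6.35%. The part of these library properties in the result was not tested. In total gene reads the 11 took 0.183% to 1.32% of 9 libraries and 6.65% of the drought 6PP library.

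**Figure D2:**
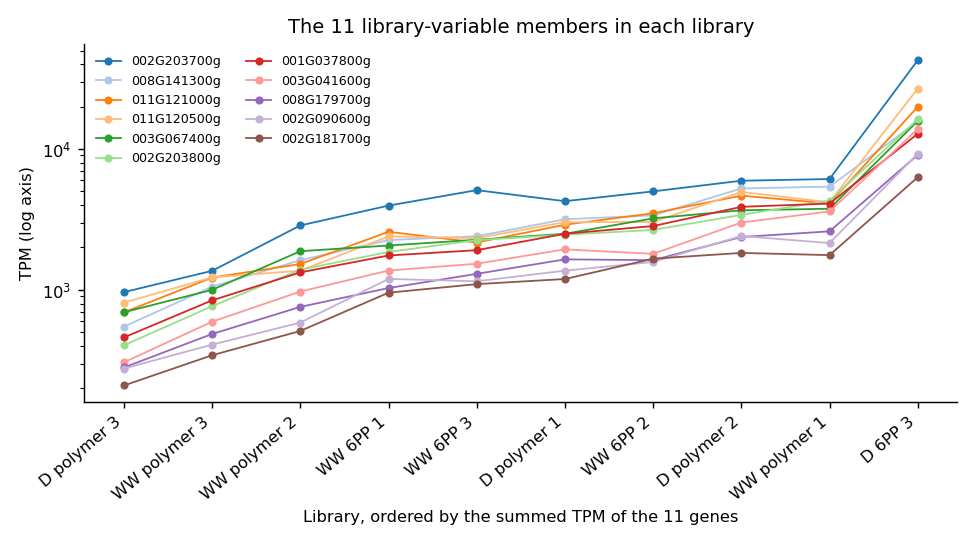
TPM (log axis) of the 11 library-variable members in each of the 10 libraries, ordered by their summed share of TPM. All 11 are lowest in drought polymer replicate 3 and highest in the drought 6PP library, and libraries of different groups alternate along the axis.

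Without these 11, in both members and total, the remaining 89 held 27.6% to 29.7% of TPM in well-watered libraries. Their share was 13.6%, 15.6% and 15.6% in drought polymer libraries and 11.8% in the drought 6PP library. The drought 6PP library then stood below the drought polymer libraries and not near the well-watered ones. As group means the 89 held 28.2% ± 0.71 (SD, n = 3) in well-watered polymer, 29.2% ± 0.596 (SD, n = 3) in well-watered 6PP and 14.9% ± 1.15 (SD, n = 3) in drought polymer leaves.

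Ranks were taken over all genes other than the 51 left out. Under drought, 53 of the 100 members still ranked within the 100 highest by mean TPM over the drought polymer libraries, and 47 did not. By comparison, the 100 highest genes of well-watered polymer and of well-watered 6PP leaves had 95 genes in common. The 53 were the 11 library-variable genes and 42 of the other 89. By single library, all 11 variable genes ranked within 100 in drought polymer replicates 1 and 2, but only 1 of them in replicate 3. Members kept a place in each of the 3 drought polymer libraries in 38 cases and in none of them in 40 cases. Of the 47 that lost it, 17 still ranked within 200, a further 21 within 1000 and 9 beyond 1000. The places were kept most often at the very top, by 17 of the 20 highest members, 16 of the 30 ranking 21 to 50 and 20 of the 50 ranking 51 to 100. With a fixed cut at rank 100, members far above it can fall further and still keep a place. RBCS_1, for example, fell by 4.16 times in drought polymer leaves and still ranked 9, so a kept place is not a steady level. In the drought 6PP library 41 members ranked within 100, the 11 and 30 of the other 89. Of these 30, 26 were also among the 42 of the drought polymer leaves. The remaining 4 kept a place in the drought 6PP library and not in the drought polymer mean, and were PHAVU_001G033500g (rank 42), PHAVU_007G057600g (rank 52), PHAVU_008G053300g (rank 71) and PHAVU_001G253700g (rank 89).

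**Figure D3:**
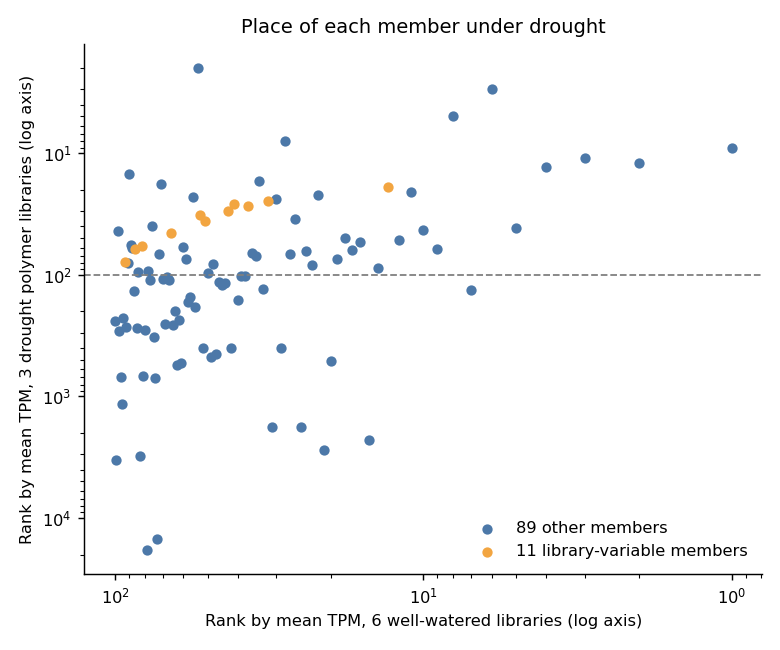
Rank of each member by mean TPM over the 3 drought polymer libraries against its rank over the 6 well-watered libraries, both on log axes with rank 1 at the top right. The dashed line marks rank 100, above which 53 members stay; the lowest points are 9 members beyond rank 1000.

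Per gene, drought polymer leaves were compared with well-watered polymer leaves by edgeR's quasi-likelihood test on gene reads over all genes. A gene counted as called where its log2 fold change was 0.6 or more in size, its false discovery rate (FDR) was 0.01 or less and its p after Bonferroni adjustment was 0.05 or less. All 100 members passed the filter on low counts, which kept 22398 genes. Of the members, 51 were called lower and 3 higher, where 7.2% of all genes tested were called lower and 5.12% higher. Selection of genes for a high level in libraries that enter this contrast favours lower values under drought, so the counts are a description. When the 100 genes were instead chosen in the 3 well-watered 6PP libraries, which are not part of the contrast but share its fit, 52 were called lower and 3 higher. That list had 98 of the 100 members, so its counts are no independent check. The median log2 fold change was -1.34 over the members and -0.01 over all genes tested, and 77 members had a value below 0. Among members called lower, 24 had a log2 fold change of -2 or less, a fall of 4 times or more, where 4.38% of all genes tested were called that far down. None of the 11 library-variable members was called. They were set apart for a wide spread between well-watered libraries, some of them in this contrast, which favours large standard errors (0.53 to 0.71). Their lack of calls is therefore a description only. Most members called lower lost their place (40 of the 47 that lost it). Of the 53 that kept it, 11 were called lower, each of them among the 42 that were not library-variable. Place and call rest on the same drought polymer libraries, so the overlap between them is built in.

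The calls depended on the libraries that entered. In a fit of only the groups compared, 42 of the 51 were still called lower. With 1 library left out at a time between 35 and 48 of the 51 were still called lower. Leaving out both well-watered polymer replicate 1 and drought polymer replicate 3, the highest and lowest libraries of this contrast by the 11 variable genes, left 23 of the 51. RBCS_1, RBCS_2 and PHAVU_001G114100g were among the calls lost in that fit, with log2 fold changes of -2.20, -2.29 and 1.97, close to those of all libraries.

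**Figure D4:**
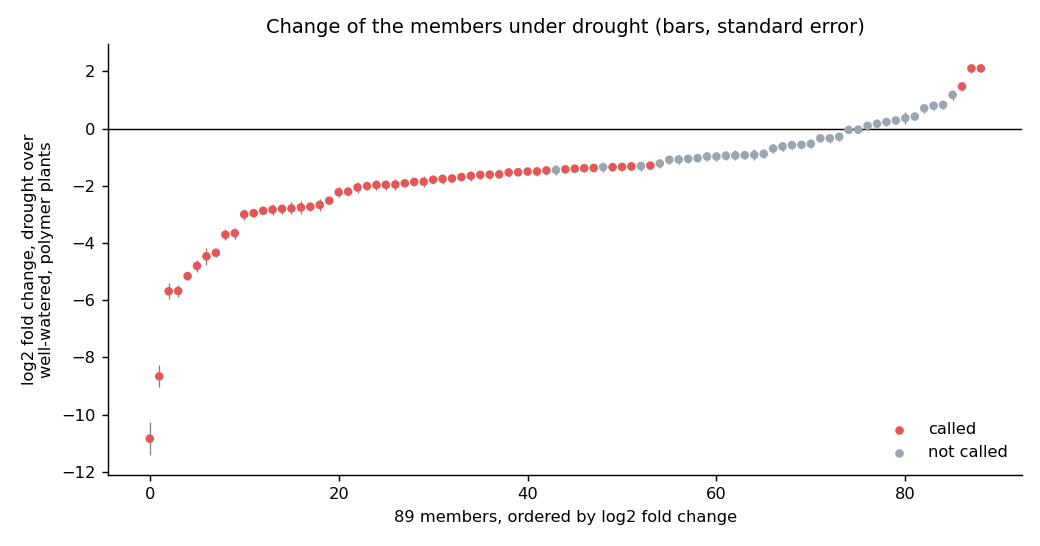
Log2 fold change of drought over well-watered polymer leaves for the 89 members that were not library-variable, in rising order, with standard errors as bars. Red points passed the call (51 below 0, 3 above) and grey points did not; the lowest is at -10.84 and the 2 highest at 2.10.

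The pair of Rubisco small subunit genes ranked 1 and 5 in well-watered leaves. RBCS_1 (PHAVU_004G064800g, chromosome 4, 9077625 to 9078545) had 25395, 25286 and 27723 TPM in well-watered polymer leaves and 30562, 24722 and 26463 TPM in well-watered 6PP leaves. It had 5092, 6534 and 7356 TPM in drought polymer leaves and 1799 TPM in the drought 6PP library. The well-watered and drought libraries did not overlap, and the drought 6PP library was the lowest. RBCS_1 was lower in drought polymer than in well-watered polymer leaves by 4.16 times, a log2 fold change of -2.06 with a standard error of 0.183 (edgeR, FDR = 2.62e-06). It kept its place with rank 9 under drought. The call was lost without drought polymer replicate 2, with the log2 fold change between -2.18 and -1.91 when 1 library was left out.

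RBCS_2 (PHAVU_004G064900g, chromosome 4, 9109917 to 9111023) had 9646, 8876 and 9118 TPM in well-watered polymer leaves and 12695, 9417 and 10135 TPM in well-watered 6PP leaves. Under drought it had 1626, 2076 and 2253 TPM with polymer and 671 TPM in the drought 6PP library, again without overlap. Its log2 fold change was -2.22 with a standard error of 0.183 (edgeR, FDR = 1.41e-06), and it fell to rank 41. The neighbours are next to each other in the gene order. Only 27.9% of the reads of RBCS_1 and 50.1% of those of RBCS_2 mapped to a single place, so how the reads were split between the copies is uncertain. Together they held 3.41% to 4.33% of TPM in well-watered libraries, 0.672% to 0.961% in drought polymer libraries and 0.247% in the drought 6PP library. In limma on log2(TPM + 1) the calls of both genes were lost, with log2 fold changes of -2.06 and -2.23.

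THI1_1 (PHAVU_007G052900g, chromosome 7, 4252089 to 4253791) was the highest member to lose its place. Its level was 8639, 9051 and 9449 TPM in well-watered polymer and 7982, 8995 and 8718 TPM in well-watered 6PP leaves. Drought polymer leaves had 566, 718 and 880.4 TPM and the drought 6PP library 45.9 TPM. Each drought library lay below all the well-watered ones, by more than the spread within any group. THI1_1 fell by 12.6 times in drought polymer leaves, with a log2 fold change of -3.66 (standard error 0.187; edgeR, FDR = 3.92e-08), from rank 7 to rank 133. More than 99% of its reads were unique, and the call stood under each of the 20 alternatives run for it. In the drought 6PP library it ranked 3440.

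**Figure D5:**
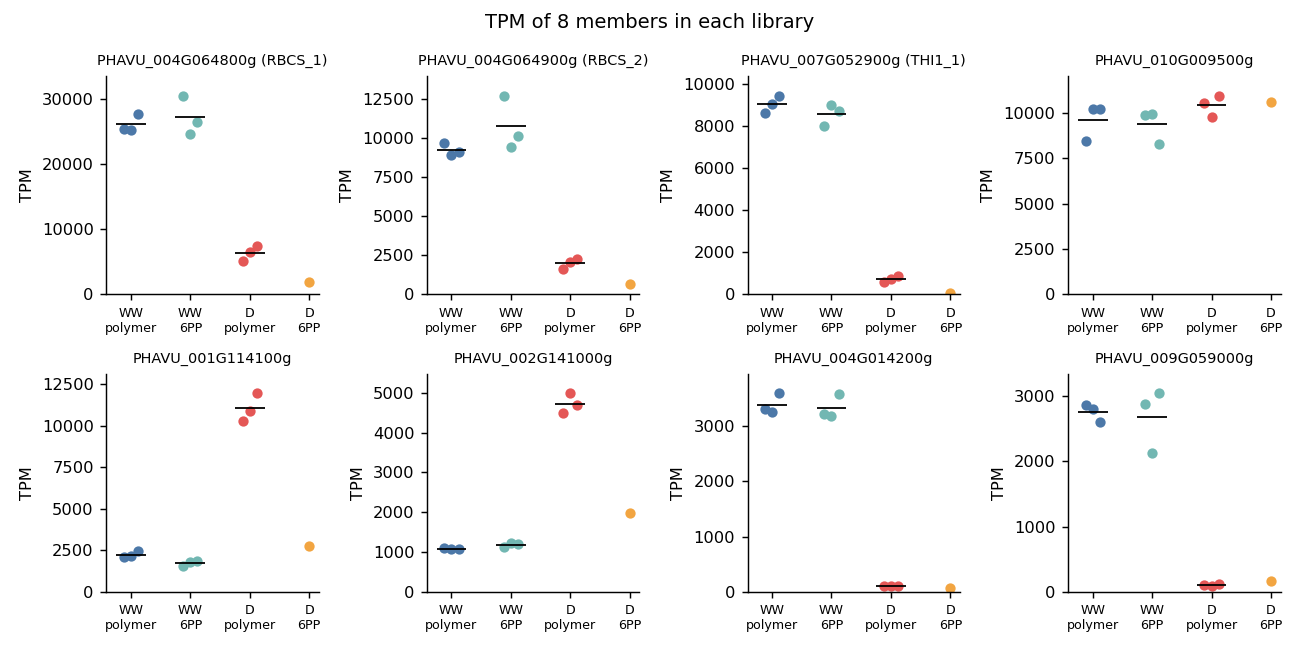
TPM of 8 members in each library (points), with the group mean as a line where a group has 3 libraries. RBCS_1, RBCS_2, THI1_1, PHAVU_004G014200g and PHAVU_009G059000g are lower in each drought library, PHAVU_010G009500g stays between 8316 and 10966 TPM, and PHAVU_001G114100g and PHAVU_002G141000g are higher in drought polymer leaves.

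The largest falls were of genes without a symbol. PHAVU_010G129900g (chromosome 10, 39982780 to 39983851), a single-exon gene, had 1658, 1045 and 993 TPM in well-watered polymer and 2055, 871 and 1513 TPM in well-watered 6PP leaves. In drought polymer leaves it had 0.332, 0.348 and 1.38 TPM, from 10, 10 and 38 reads, and in the drought 6PP library 0.872 TPM, from 26 reads. The gene thus went from the 100 highest genes to rank 18370, and its drought levels rest on few reads. Its log2 fold change was -10.84 with a standard error of 0.579 (edgeR, FDR = 5.24e-08). PHAVU_006G202700g (chromosome 6, 30681855 to 30682601), also with a single exon, had 1776, 1034 and 1041 TPM in well-watered polymer, 2000.3, 1184 and 1823 TPM in well-watered 6PP and 4.53, 2.25 and 2.81 TPM in drought polymer leaves. It had 0.192 TPM in the drought 6PP library, from 4 reads. The log2 fold change in polymer leaves was -8.66 with a standard error of 0.386 (edgeR, FDR = 1.57e-08). Both genes also varied between well-watered replicates, by up to 2.36 times in PHAVU_010G129900g, and for both all drought libraries lay far below that range.

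PHAVU_004G014200g fell steeply and was steady among replicates. It lay on chromosome 4, 1483531 to 1485907, and had 3304, 3260.1 and 3596 TPM in well-watered polymer and 3213, 3194 and 3587 TPM in well-watered 6PP leaves. It had 96.9, 100.5 and 101.1 TPM in drought polymer leaves and 76.6 TPM in the drought 6PP library, so all 4 drought libraries lay close together. The fall in polymer leaves was 35.7 times, a log2 fold change of -5.16 with a standard error of 0.146 (edgeR, FDR = 1.46e-09). PHAVU_004G013500g (chromosome 4, 1424236 to 1429164) had 3716, 3135 and 3518 TPM in well-watered polymer and 90.3, 52 and 58.6 TPM in drought polymer leaves, with 13.6 TPM in the drought 6PP library. Its drought polymer libraries spread more widely. PHAVU_009G059000g had 2872, 2811 and 2602 TPM in well-watered polymer, 2888, 2128 and 3044 TPM in well-watered 6PP and 95.6, 87.3 and 118 TPM in drought polymer leaves. In the drought 6PP library it had 159.8 TPM, above each of the drought polymer libraries and far below the well-watered ones. Log2 fold changes in polymer leaves were -5.68 for PHAVU_004G013500g, -4.80 for PHAVU_009G059000g, -4.34 for PHAVU_008G123600g and -3.71 for PHAVU_010G052300g, and these 4 calls stood under each of the 20 alternatives.

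A pair of single-exon genes of about the same length, PHAVU_002G154500g and PHAVU_004G091600g, fell as well, with log2 fold changes of -5.69 and -4.47. PHAVU_002G154500g had 4255, 4024 and 3998 TPM in well-watered polymer and 52.3, 84.1 and 103 TPM in drought polymer leaves, but next to none of its reads were unique and the call was lost in unique reads. PHAVU_004G091600g, with 43.4% unique reads, had 1552, 1060.2 and 1305 TPM and 40.9, 61.9 and 75.8 TPM in the same libraries, and remained called in unique reads. The drought 6PP library had 3.76 and 1.12 TPM of them, below each of the drought polymer libraries. Values of PHAVU_002G154500g are therefore uncertain as to which gene gave the reads.

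Another adjacent pair moved side by side. PHAVU_003G2476001g and PHAVU_003G2476000g, on chromosome 3 from 47334201 to 47335610 and from 47339284 to 47339647, had log2 fold changes of -2.73 and -2.81. PHAVU_003G2476001g had 2467, 2054 and 2146 TPM in well-watered polymer and 283, 355 and 363 TPM in drought polymer leaves. Its neighbour had 2265, 2258 and 2320.0 TPM and 264, 372 and 350.4 TPM. In both, well-watered and drought libraries did not overlap. The third adjacent pair among the members was PHAVU_002G203700g and PHAVU_002G203800g of the library-variable set.

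Other members near the top of the list had log2 fold changes between -2.01 and -0.34. PHAVU_009G227100g, the second member, had 13824, 14379 and 15366 TPM in well-watered polymer, 12155, 13546 and 14777 TPM in well-watered 6PP, 5584, 5629.7 and 5878 TPM in drought polymer leaves and 3894 TPM in the drought 6PP library. The groups did not overlap across watering, and the gene kept its place at rank 12. Its log2 fold change was -1.38 with a standard error of 0.141 (edgeR, FDR = 8.09e-06), a call that was lost without any 1 of the libraries other than drought polymer replicate 1. Of the members ranking 3, 4, 9, 10, 11, 12 and 14, PHAVU_004G071500g (-1.86), PHAVU_010G121400g (-1.34) and PHAVU_008G054400g (-2.01) were called lower. The call of PHAVU_010G121400g was lost without any 1 of the 6 libraries of the contrast, and that of PHAVU_004G071500g without any of the well-watered polymer libraries or without drought polymer replicate 2. PHAVU_002G196400g (-0.92), PHAVU_005G055200g (-0.95), PHAVU_002G168000g (-0.34) and PHAVU_006G216600g (-1.45) did not pass. All of these but PHAVU_002G168000g missed only the Bonferroni limit.

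Members that held their level were fewer. Of the 42 that kept a place and were not library-variable, 21 had a log2 fold change of -0.6 or less, 14 lay within 0.6 on either side of 0 and 7 were at 0.6 or more. PHAVU_010G009500g (chromosome 10, 1509087 to 1510738) was the clearest case at the top, with 8443, 10221 and 10227 TPM in well-watered polymer and 9870.4, 9962 and 8316 TPM in well-watered 6PP leaves. Drought polymer leaves had 10579, 9814 and 10966 TPM and the drought 6PP library 10639.8 TPM. In read counts scaled to library totals (log2 CPM), however, the drought 6PP library was 0.35 above the drought polymer mean. The TPM ranges overlapped in part. The log2 fold change in polymer leaves was 0.10 with a standard error of 0.134 (edgeR, FDR = 0.565), with a sign that depended on the libraries used. Its rank was 6 in well-watered and 3 in drought polymer leaves. PHAVU_009G174000g likewise had 3319, 3834 and 3524 TPM in well-watered polymer and 3603, 3368 and 3545 TPM in drought polymer leaves (log2 fold change -0.04), but 1174 TPM in the drought 6PP library. PHAVU_002G196000g had 4906, 8944 and 7747 TPM and 8871, 9225 and 9967 TPM in the same groups, and none of its reads were unique, so its values are uncertain.

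The 3 members called higher under drought were PHAVU_001G114100g, PHAVU_002G141000g and PHAVU_006G145100g. PHAVU_001G114100g (chromosome 1, 31974072 to 31974812) had 2073, 2153 and 2459 TPM in well-watered polymer and 1525, 1785 and 1850.1 TPM in well-watered 6PP leaves. It had 10303, 10906 and 11944 TPM in drought polymer leaves, where it ranked 2, and 2756 TPM in the drought 6PP library. The drought polymer libraries stood far above the rest, and the drought 6PP library just above the well-watered range. The log2 fold change in gene reads was 2.10 with a standard error of 0.17 (edgeR, FDR = 1.23e-06). Introns held 65.9% of its reads over the libraries, and the gene was called in exon reads too.

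PHAVU_002G141000g (chromosome 2, 27565360 to 27566800) had 1100.1, 1073 and 1071 TPM in well-watered polymer and 1131, 1218 and 1190.4 TPM in well-watered 6PP leaves. Under drought it had 4485, 4983 and 4703 TPM with polymer and 1970.1 TPM in the drought 6PP library, so that all drought libraries lay above all well-watered ones. The rise was 4.3 times in polymer leaves, a log2 fold change of 2.10 with a standard error of 0.114 (edgeR, FDR = 5.86e-08), and the call stood under each of the 20 alternatives. PHAVU_006G145100g had 1469.9, 1433 and 1449 TPM in well-watered polymer and 1294, 1688 and 1934 TPM in well-watered 6PP leaves. It had 3642, 4557 and 3991 TPM in drought polymer leaves and 4009.5 TPM in the drought 6PP library, again without overlap. Its log2 fold change of 1.47 had a standard error of 0.166 and a Bonferroni-adjusted p of 0.0479 (edgeR), close to the limit, and the call was lost without any 1 of the 6 libraries of the contrast.

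Other members with positive values did not pass all 3 limits, and some missed only the Bonferroni limit. Without that limit, 7 members were higher and 68 lower, beside 3525 and 4601 of the 22398 genes tested. PHAVU_008G101800g had 2696, 2948 and 3222 TPM in well-watered polymer and 7005, 7050.0 and 6599 TPM in drought polymer leaves, a log2 fold change of 1.18 with a Bonferroni-adjusted p of 0.851 (edgeR). The drought 6PP library, with 2096 TPM, lay below each of the 6 well-watered libraries by TPM. By log2 CPM it was not below all the well-watered 6PP libraries. Log2 fold changes were 0.83 for PHAVU_009G248700g, 0.80 for PHAVU_010G150000g, 0.71 for PHAVU_004G011900g, 0.42 for PHAVU_001G009900g and 0.28 for PHAVU_007G052600g.

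The 47 places that members left were taken by 47 other genes, which are chosen for a high level under drought and so are described only. They held 11.5% of TPM in drought polymer leaves and 1.93% in well-watered polymer leaves on average, and 31 of them were called higher. Some came from just outside the list and others from far down, with 18 at a well-watered rank within 200 and 15 beyond rank 1000. The first was PHAVU_010G069100g, listed with the symbol Pha v 3.0201, the allergen name of a bean lipid transfer protein. It was the most abundant gene of drought polymer leaves, with 14925, 14788 and 13122 TPM against 147, 164 and 171 TPM in well-watered polymer leaves, and had 2063 TPM in the drought 6PP library. PHAVU_007G080400g, PHAVU_009G105300g, PHAVU_008G008200g and PHAVU_006G210400g came next, at ranks 4, 6, 7 and 10. Of the 47, PHAVU_002G261700g (MIPSV), an inositol phosphate synthase, and PHAVU_008G093700g (PFE) also had symbols.

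In well-watered leaves, 6PP-coated and polymer-coated plants had nearly the same list. No member was called in 6PP against polymer leaves by edgeR's quasi-likelihood test, where 0.0% of all genes tested were called. At an unadjusted p under 0.05 there were 4 members, and 1232 (5.50%) of all genes. DESeq2 and edgeR's likelihood ratio test also called 0 members, and 4 genes in all. The smallest FDR among members was 0.813. Log2 fold changes ran from -0.63 to 0.58 over the members, with a median of 0.12 against 0.01 over all genes tested. By sign 85 of the 100 were above 0 in gene reads, and 66 on the log2(TPM + 1) scale, where the median was 0.05 for members and -0.04 for all genes, so the count of signs depended on the scale. In 12 members the 3 libraries of each group did not overlap, beside 10.5% of all genes tested.

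The 4 members at an unadjusted p under 0.05 were PHAVU_001G114100g, PHAVU_009G004400g, PHAVU_009G020300g and PHAVU_001G157100g, none past the correction. PHAVU_001G114100g had 2073, 2153 and 2459 TPM in polymer and 1525, 1785 and 1850.1 TPM in 6PP leaves, without overlap, and a log2 fold change of -0.63 with a standard error of 0.164. PHAVU_009G004400g had 2084, 1963 and 2206 TPM in polymer and 1271, 1445 and 1888 TPM in 6PP leaves, again without overlap (log2 fold change -0.36, standard error 0.153). The other 2 were higher in 6PP leaves, by 0.35 for PHAVU_009G020300g and 0.29 for PHAVU_001G157100g on the log2 scale. For RBCS_1 the well-watered groups overlapped, with a log2 fold change of 0.14 and a standard error of 0.176, for RBCS_2 it was 0.30 with 0.175, and for THI1_1 -0.01 with 0.168.

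The drought 6PP library was set beside the 3 drought polymer libraries without a test. By log2 CPM (read counts scaled to library totals adjusted by TMM normalization), 45 members were at least 0.6 lower and below all 3. By the same measure 19 were at least 0.6 higher and above all 3. The TMM factor was 0.879 for the drought 6PP library and 0.974 to 1.04 for the others, so unadjusted totals would give other differences. Of all genes tested 25.4% were lower and 18.0% higher by the same limits. The 19 were the 11 library-variable genes, whose differences lay between 3.23 and 4.23, and 8 others. The median difference was -0.63 over the other 89 members and -0.09 over all genes tested. The log2 difference was -3.64 for THI1_1, -1.48 for RBCS_1 and -1.24 for RBCS_2. PHAVU_010G156300g, with 726, 917 and 1087 TPM in drought polymer leaves and 61.6 TPM in the drought 6PP library, had a difference of -3.57, and PHAVU_002G196400g, with 4074, 6542 and 6625 against 789 TPM, one of -2.51.

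Among the 8 higher ones, PHAVU_001G033500g had 279, 179 and 197 TPM in drought polymer leaves and 2027 TPM in the drought 6PP library, where well-watered 6PP leaves had 1117, 1528 and 1759.7 TPM. PHAVU_007G057600g had 464, 382 and 475 TPM in drought polymer leaves and 1684 TPM in the drought 6PP library, and PHAVU_001G173500g had 164, 127 and 145 TPM and 324 TPM. By TPM, the first of these was above the well-watered 6PP range in the drought 6PP library, the second was within it and the third stayed below it. In 3 members (PHAVU_001G033500g, PHAVU_007G057600g and PHAVU_009G011100g) the drought libraries lay, by log2 CPM, below the well-watered range in polymer plants and above it in 6PP plants, and 7.98% of all genes tested lay on opposite sides in this way. The groups' ratios in these genes rest on 1 drought 6PP library, which also held 18.8% of its TPM in the 11 library-variable genes.

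The choice was by TPM, which for a given number of reads is higher in a gene with less exon length, so the following is a description. The median member had 3 exons and 1034 bases of exon, beside 4 exons and 1683.5 bases over the genes tested, and 33% had a single exon against 18.0%. Introns held a median of 0.99% of a member's reads, against 5.72% over the genes tested. Reads mapped almost only to 1 place in 91 members (91%), which had at least 99% unique reads, and 7 members had under 80%. Among the 22398 genes tested, 94.7% had at least 99% unique reads and 205 had under 80%. By both limits members were thus less often unique than the genes tested. The members lay on all 11 chromosomes, with most on chromosomes 1 (14), 2 (13) and 9 (13) and fewest on chromosomes 6 and 11 (5 each). Of the 22398 genes tested, chromosomes 1, 2 and 9 held 2284, 2873 and 2276, and chromosomes 6 and 11 held 1833 and 1685. Coordinates are those of the deposited tables, which name no assembly.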

How the data were processed

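RNA of bean leaves was sequenced in 12 samples, of which 10 libraries were used. The authors trimmed, aligned and counted reads in CLC Genomics Workbench 21.0.4 and deposited, per gene, raw counts (total, unique, exon and intron reads, without normalization). They also deposited TPM values, computed from exon reads. The study's methods name the BAT93 genome, and the tables name no assembly. A drought 6PP file with 12 tables and the second table of another were not used.

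Members were ranked on deposited TPM. Total gene reads were tested in R 4.3.3 with edgeR 4.0.16 (TMM, filterByExpr, quasi-likelihood test, 1 fit of 4 group means, FDR by Benjamini-Hochberg), and checked on simulated data. Each standard error was obtained by dividing the size of the log2 fold change by the root of its F statistic. CPM used TMM-adjusted library totals and a prior count of 2. DESeq2 1.42.0, limma 3.58.1 on log2 TPM with a pseudocount of 1 or 0.1, other filters, normalizations and member rules, and leaving out replicates were alternatives. Replicates were labelled biological and each was a pool of plants, and p-values measure the spread between these pools. Members, lists and tests were chosen with earlier results of these data known. Genes named are the 15 highest, those with a symbol, the 10 lowest and 10 highest by drought fold change, those at the edge of the list, adjacent pairs, the first 5 newcomers and others said to be chosen for a pattern. The library-variable set was chosen by TPM, after its values were seen. No sequence of these genes was printed because the reference table used here does not share their identifiers.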

Additional observations from a re-analysis of the deposited data

Results flagged for a closer look

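In 3 members all drought polymer libraries lay on one side of the well-watered polymer libraries while the drought 6PP library lay on the other side of the well-watered 6PP libraries, on the log2 CPM scale. Of all genes tested 7.98% showed such a pattern. The difference between the contrasts was not tested, because it rests on 1 drought 6PP library. PHAVU_001G033500g differed by -2.80 between drought and well-watered polymer leaves and by 0.70 between the drought 6PP library and well-watered 6PP leaves. It had 1291, 1514 and 1631 TPM in well-watered polymer, 279, 179 and 197 TPM in drought polymer and 1117, 1528 and 1759.7 TPM in well-watered 6PP leaves, and 2027 TPM in the drought 6PP library. For PHAVU_007G057600g these differences were -1.96 and 0.30, but by TPM its drought 6PP library (1684 TPM) lay within the well-watered 6PP libraries (1326, 1541 and 1837 TPM). The 2 others kept the pattern by TPM. The differences of PHAVU_009G011100g were -0.30 and 0.66. PHAVU_009G011100g had 1505, 1489 and 1417 TPM in well-watered polymer, 1067, 1281 and 1306 TPM in drought polymer and 1213, 1596 and 1692 TPM in well-watered 6PP leaves, and 2001 TPM in the drought 6PP library.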

How the results depend on the processing

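Members called lower under drought (51) stayed between 39 and 72 under the normalizations, filters, read types, tests and thresholds run, other than those named here, and those called higher (3) at 2 or 3. With edgeR's likelihood ratio test 6 were called higher, with DESeq2 7 and at an FDR of 0.05 alone 8. With the 50 highest genes as members 28 were called lower and 0 higher, and with the 200 highest 85 and 8. Without well-watered polymer replicate 1 and drought polymer replicate 3, an alternative chosen after seeing the data, 23 were called lower and 1 higher, and PHAVU_010G009500g had a log2 fold change of -0.0312. Leaving out 1 replicate at a time gave 35 to 48 lower and 2 to 2 higher, 51 to 56 members kept among the 100, and 0 to 0 called for 6PP, while shares were 29.2% to 30.3% in well-watered polymer, 30.8% to 31.1% in well-watered 6PP and 16.0% to 17.6% in drought polymer leaves. Of the 50 highest genes 20 kept a place and of the 200 highest 109 did. Shares in well-watered polymer, well-watered 6PP and drought polymer leaves were 22.5%, 23.6% and 11.1% for the 50 highest genes, 36.9%, 38.1% and 23.7% for the 200 highest, 20.2%, 21.4% and 10.0% of gene reads, 20.9%, 22.1% and 9.99% of exon reads, and 28.2%, 29.2% and 14.9% without the library-variable members, which was chosen after seeing the data. With the genes that the study names kept in, they were 31.1% and 32.3% in the well-watered groups. The cause of these changes was not tested. Over all genes, 1613 were called lower and 1147 higher, against 3580 and 2718 with the likelihood ratio test, 3620 and 2605 with DESeq2, 1066 and 817 with limma on log2(TPM + 0.1), 960 and 606 without the 2 libraries, and 976 to 1281 and 692 to 849 with 1 replicate left out. For the 31 members tested by name under drought, 554 of 618 values kept their direction and side of the thresholds, 51 lost the call, 12 gained it and 1 turned. All 76 values of the 4 members named for 6PP were unchanged in call and direction.

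Correlations of deviations from group means lay between -0.0918 and 0.1564 for same-numbered replicates and between -0.1462 and 0.138 for differently numbered ones. Whether replicate numbers stand for a shared tray or chamber was not tested. With the replicate block 47 members were called lower, all among the 51, and 2 higher, 0 were called for 6PP, and over all genes 1403 were lower and 864 higher. Depth limits the lowest drought values, such as the 10 reads of PHAVU_010G129900g in a library.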
